A study of Mus musculus with 4 samples.

Results

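Messenger RNA of regulatory T cells (Treg cells) labelled rTreg was compared between 2 genotypes, with 1 library each. The comparison covers 9332 genes out of 19044 in the deposited count table. A gene entered it when its mean over the 4 libraries of the series reached 5 CPM (counts after scaling every library to the same total) and when it lies on an autosome. The level minimum alone left 9680 genes, which hold 99.3% of the counts of either rTreg library. The first group, WT in the labels, came from Foxp3-YFP-Cre mice, in which the Foxp3 gene drives Cre recombinase and a yellow fluorescent protein. In the second group, labelled Ripk1 knockout, the mice were Ripk1 fl/fl Foxp3-YFP-Cre, so that Cre acts on a floxed Ripk1 gene wherever Foxp3 is expressed, and both groups share the Cre allele. The cells were primary Treg cells from spleen and peripheral lymph nodes, and neither group was treated. The letters r and a are not explained in the labels; usual names for such pools are resting and activated Treg cells. The sources used here do not give the age, sex and number of the mice, whether mice were pooled, the sorting gate or the exons that are floxed. The aTreg libraries of the same genotypes are set beside the rTreg pair and share no library with it, but the sources do not say whether the same mice gave both libraries of a genotype.

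The WT rTreg library held 20868319 counts and the rTreg library labelled knockout 17588754. With 1 library per group there is no replicate check and no p-value, and "higher" and "lower" below describe these libraries only. Ratios are log2 ratios of CPM, labelled knockout over WT, after TMM scaling and with a prior count of 2. Brackets give 95% exact binomial intervals of the counts, which hold counting error alone and no variation between mice or in handling. PCR copies of a molecule are counted as separate reads, so the intervals may be too narrow even for counting error. A count of 0 allows up to 3 counts, which is 0.143 CPM in WT rTreg and 0.17 CPM in the other library. A level given as "from" one CPM "to" another is that of WT rTreg and then that of the rTreg library labelled knockout, and a lone number after it is the log2 ratio. CPM is not scaled by transcript length, so levels are compared between libraries and not between genes.

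Ripk1, the targeted gene, had 1755 counts in WT rTreg and 1492 in the rTreg library labelled knockout, which is 83.6 and 84.7 CPM. The log2 ratio was 0.02 [−0.08 to 0.12], and −0.03 with upper-quartile scaling. Ripk1 overlaps Serpinb6a on the opposite strand, which was at 15.8 and 12.4 CPM. The mRNA count of the whole gene thus showed no loss, and it can miss the loss of a few exons, so the libraries are called KO-labelled throughout. Foxp3, the X-linked gene of the factor that defines Treg cells, was at 688 CPM in WT and 619 CPM in the KO-labelled library. Summed over 6 Treg markers the level was 2659 and 2880 CPM, and over 7 general T cell markers 3743 and 3601 CPM, so both libraries carry the markers of their label. Xist, the RNA that silences 1 X chromosome in female cells, had 6271 counts in WT rTreg and 5 in KO-labelled rTreg, whereas the Y-linked gene Ddx3y had 2542 and 2218 and Eif2s3y 1383 and 1543. Xist was thus nearly absent with 1 genotype while Y-linked RNA was present with both, and any part of the sex makeup of the mice in an autosomal difference cannot be told apart from that of genotype. Markers of other cells were low in both libraries: 10 B cell markers summed to 15.2 CPM in WT and 18.3 CPM in the KO-labelled library, 10 macrophage and monocyte markers to 15.5 and 19.4, and 2 CD8 T cell markers to 10.5 and 12.9. Erythroid markers (6 genes, 0.619 and 10.9 CPM) and neutrophil markers (6 genes, 0.191 and 4.14 CPM) were further apart, with 4 of 6 at 0 counts in WT in each list. The part of such cells in the results was not tested.

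Treg cells are CD4 T cells that hold immune responses in check, and a resting pool recirculates through lymphoid organs until signals from the T cell receptor turn it into an effector pool. RIPK1 is a kinase and a scaffold in the signalling complexes of tumour necrosis factor receptors. In them it can pass on NF-kappaB signals, join FADD and caspase-8 to start apoptosis, or join RIPK3, which acts on MLKL to start necroptosis. Treg cells can take on parts of the program of the helper cells they restrain. In type 1 inflammation they can express T-bet, the factor encoded by Tbx21, and CXCR3, and respond to interferon-gamma. Interferon-gamma acts on genes that carry GAS or ISRE sites, among them the guanylate-binding proteins (GBP) and immunity-related GTPases (IRG), which attack vacuoles of intracellular microbes.

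Promoters of the GBP and IRG genes are shown first, since all 17 measured members had counting intervals above 0. RefSeq's promoter table (GRCm38.p6, 250 bases before to 50 after a start site) held 9 of the 17, and 7477 of the 9332 autosomal genes. Capitals mark the ISRE core, that is GAAA, any 2 bases and GAAA again, searched on both strands, so that it can also appear as TTTC, 2 bases and TTTC. Each line gives 150 bases upstream of the start on the strand of the gene. The windows end at the base before the start, except that of Gbp5, which runs from 250 to 101 bases before it.
Gbp2b: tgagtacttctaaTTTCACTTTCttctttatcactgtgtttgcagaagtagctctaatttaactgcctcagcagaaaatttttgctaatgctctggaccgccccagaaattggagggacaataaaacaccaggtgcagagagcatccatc
Gbp2: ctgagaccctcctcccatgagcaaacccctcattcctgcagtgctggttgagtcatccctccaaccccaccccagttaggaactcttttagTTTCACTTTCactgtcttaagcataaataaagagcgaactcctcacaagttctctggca
Gbp3: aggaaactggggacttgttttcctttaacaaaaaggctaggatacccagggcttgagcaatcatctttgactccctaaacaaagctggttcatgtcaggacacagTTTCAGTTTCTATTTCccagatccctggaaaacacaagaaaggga
Gbp5: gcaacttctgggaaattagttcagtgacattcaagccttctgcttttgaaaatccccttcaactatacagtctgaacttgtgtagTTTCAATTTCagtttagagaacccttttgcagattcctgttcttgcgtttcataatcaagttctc
Gbp7: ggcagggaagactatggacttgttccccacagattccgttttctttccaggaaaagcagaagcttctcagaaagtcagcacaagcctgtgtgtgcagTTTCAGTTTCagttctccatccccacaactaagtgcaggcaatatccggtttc
Igtp: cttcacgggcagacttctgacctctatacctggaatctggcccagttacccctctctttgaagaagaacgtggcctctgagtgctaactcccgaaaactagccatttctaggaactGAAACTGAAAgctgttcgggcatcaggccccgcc
Irgm1: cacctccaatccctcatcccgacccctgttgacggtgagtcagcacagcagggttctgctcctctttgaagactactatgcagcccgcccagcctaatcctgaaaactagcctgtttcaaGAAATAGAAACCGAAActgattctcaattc
Irgm2: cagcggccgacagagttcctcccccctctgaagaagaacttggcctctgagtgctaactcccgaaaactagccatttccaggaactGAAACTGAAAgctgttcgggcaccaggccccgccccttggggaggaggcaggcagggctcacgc
Tgtp1: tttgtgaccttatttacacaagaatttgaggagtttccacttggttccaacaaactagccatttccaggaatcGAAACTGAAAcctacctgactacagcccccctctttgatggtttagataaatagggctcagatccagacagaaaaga
The 5 GBP windows lie on the plus strand of chromosome 3, at chr3:142594697-142594846 (Gbp2b), chr3:142620513-142620662 (Gbp2), chr3:142559894-142560043 (Gbp3), chr3:142496684-142496833 (Gbp5) and chr3:142530186-142530335 (Gbp7). On chromosome 11 lie the plus-strand windows of Igtp (chr11:58199406-58199555) and Irgm2 (chr11:58214827-58214976) and the minus-strand windows of Irgm1 (chr11:48871421-48871570) and Tgtp1 (chr11:48992247-48992396). All 9 promoters hold the ISRE core, against 303 of the 7477 promoters (4.05%) of autosomal genes tested and 3.46% of all 31396 promoters in the table. The letters sit closest to the start in Irgm1, whose overlapping matches span 30 to 15 bases before it, and in Igtp, 34 to 25 bases before. In Gbp2b they lie 137 to 128 and in Gbp5 165 to 156 bases before it. The GAS letters, TTCNNNGAA, were in 5 of the 9, against 8.41% of tested promoters and 8.35% of all.

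Promoters of 2 mitosis genes and 2 DNA replication genes are shown next, because these lists had the most members at least 2-fold higher. They were taken among members whose promoter holds the letters marked, so each shows them by choice. For mitosis genes capitals mark the CHR letters, TTTGAA on either strand, an element of genes expressed late in the cell cycle. For replication genes they mark E2F letters, TTTCCCGC or TTTGGCGC on either strand.
Cenpn: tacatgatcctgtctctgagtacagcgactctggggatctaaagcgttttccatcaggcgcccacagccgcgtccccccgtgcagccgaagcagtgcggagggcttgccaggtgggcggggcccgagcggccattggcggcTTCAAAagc
Mki67: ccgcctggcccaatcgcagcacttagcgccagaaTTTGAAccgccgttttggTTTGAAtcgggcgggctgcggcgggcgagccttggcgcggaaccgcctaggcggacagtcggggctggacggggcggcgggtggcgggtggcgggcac
Cdc6: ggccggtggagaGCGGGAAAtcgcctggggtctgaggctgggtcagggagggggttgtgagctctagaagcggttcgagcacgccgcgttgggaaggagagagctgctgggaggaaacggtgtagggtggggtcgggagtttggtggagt
Mcm6: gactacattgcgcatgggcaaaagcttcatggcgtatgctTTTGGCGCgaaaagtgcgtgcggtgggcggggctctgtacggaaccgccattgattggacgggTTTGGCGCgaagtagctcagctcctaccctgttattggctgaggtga
The windows, each from 150 bases before the start to the base before it, are chr8:116921590-116921739 on the plus strand for Cenpn, chr7:135716380-135716529 on the minus strand for Mki67, chr11:98908001-98908150 on the plus strand for Cdc6 and chr1:128359706-128359855 on the minus strand for Mcm6. Of 65 mitosis promoters in the table, 47 (72.3%) held the CHR letters, against 14.1% of tested promoters and 17.6% of all. The CCAAT letters were also in 72.3% of them, against 42.8% and 37.3%. Of 46 replication promoters, 12 (26.1%) held E2F letters, against 3.84% and 1.56%. Over all autosomal genes at least 2-fold higher in KO-labelled rTreg that have an entry (234), 65 (27.8%) held CHR letters, 33 (14.1%) GAS letters, 22 (9.4%) the ISRE core and 19 (8.12%) E2F letters. In the 100 at least 2-fold lower the counts were 11, 4, 5 and 0. The T-box letters TCACACCT were in 5 of the 234 and 2 of the 100, against 1.04% of tested promoters. Such a match is a string of letters and not a measured binding site.

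Across the 9332 autosomal genes the median log2 ratio was 0.01, with quartiles at −0.23 and 0.25. A ratio within 1.1-fold was measured in 2841 genes (30.4%). At least 2-fold apart were 442 genes (4.74%), of which 317 (3.4%) were higher in the KO-labelled library and 125 (1.34%) lower. The higher side also reached further, with 34 genes at least 4-fold higher against 2 lower, and 14 at least 8-fold higher against none lower. On the variance-stabilised scale that the authors deposited, where ratios of low genes shrink, 72 were at least 2-fold higher and 9 lower. Counting intervals lay above 0 in 3203 genes (34.3%) and below 0 in 3082 (33.0%), since at this depth the interval of an abundant gene is narrow. Counts of list members below are to be read beside these shares and those of genes at least 2-fold apart. Genes at least 2-fold higher took 0.928% of WT counts and 2.37% of KO-labelled counts, and genes at least 2-fold lower 0.907% and 0.399%. A gene low in WT passes the level minimum only through the libraries in which it is high, so counts over measured members describe the table and are no support on their own. Protein-coding genes made up 309 of the 317 and 115 of the 125. The share at least 2-fold higher was 7.16% among genes under 10 CPM and 0.676% among those over 500 CPM, and the median width of an interval on either side of its ratio went from 0.36 to 0.03. By chromosome the share higher ran from 2.57% (chromosome 1) to 4.52% (chromosome 13), and 11 of 299 X-linked genes were at least 2-fold higher and 4 lower. The 10 measured genes of the mitochondrial genome had ratios between 0.24 (COX3) and 0.77 (ND6).

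**Figure D1:**
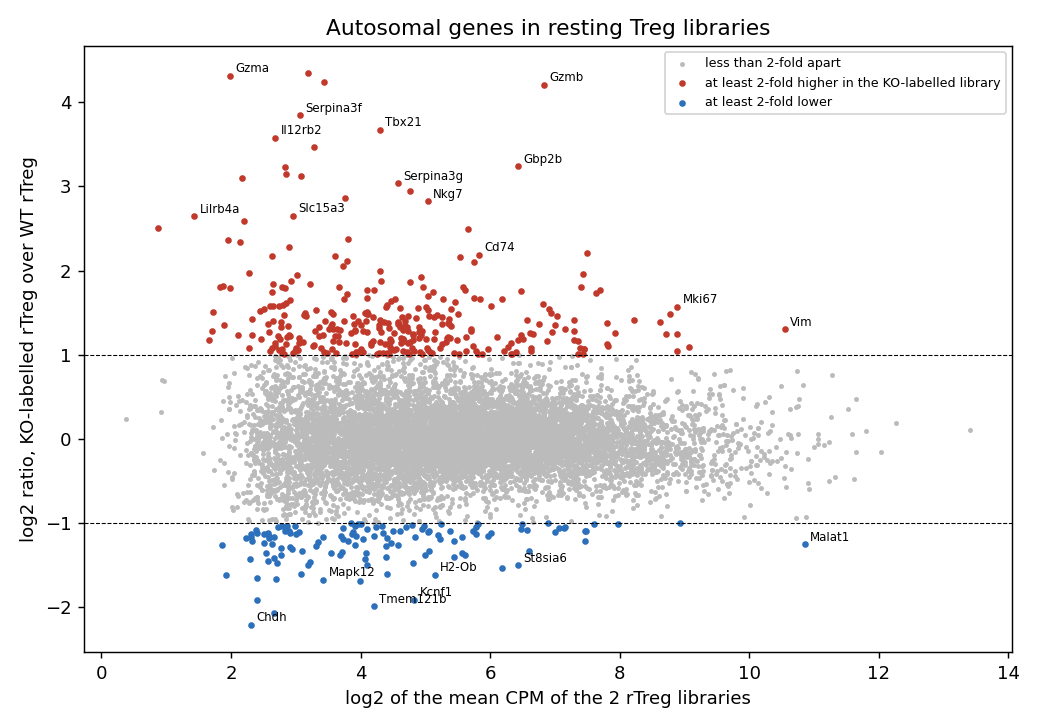
Each point is 1 autosomal gene tested, 9332 in all, with the log2 of the mean CPM of the 2 rTreg libraries on the x axis and the log2 ratio of KO-labelled over WT rTreg on the y axis. The 317 genes at least 2-fold higher reach far above the threshold, among them Gzmb and Gbp2b, while 2 of the 125 lower ones pass 4-fold.

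The highest ratios were those of granule proteases, of Tbx21 and of interferon-induced genes. Gzmb (chromosome 14, 56258838 to 56262260, minus strand), the protease granzyme B, was at 11.5 CPM in WT rTreg, 215 in KO-labelled rTreg, 29.6 in WT aTreg and 528 in KO-labelled aTreg. Its ratio in rTreg was 4.21 [4.03 to 4.42], that is 18.5-fold higher, and its level in KO-labelled rTreg exceeded that of WT aTreg. Gzma (chromosome 13, 113093825 to 113100981, minus strand), the protease granzyme A, was at 0.286 CPM in WT rTreg, 7.61 in KO-labelled rTreg, 0.923 in WT aTreg and 11.6 in KO-labelled aTreg, with a ratio of 4.31 [3.57 to 6.21] from 6 WT counts. Tbx21 was at 2.76 CPM in WT rTreg, 36.5 in KO-labelled rTreg, 10.8 in WT aTreg and 70.8 in KO-labelled aTreg, a ratio of 3.67 [3.33 to 4.14]. Il12rb2, a subunit of the receptor for interleukin-12, was at 0.905 CPM in WT rTreg, 11.9 in KO-labelled rTreg, 0.291 in WT aTreg and 18.4 in KO-labelled aTreg. Both WT libraries were under 1 CPM for Il12rb2 and both KO-labelled ones above 10. Havcr2 (chromosome 11, 46454935 to 46481255, plus strand), the inhibitory receptor TIM-3, was at 1.67 CPM in WT rTreg, 15.3 in KO-labelled rTreg, 2.43 in WT aTreg and 40.9 in KO-labelled aTreg, a ratio of 3.12 [2.69 to 3.75]. Nkg7 (chromosome 7, 43437073 to 43438249, plus strand), a membrane protein of cytotoxic granules, was at 8.05 CPM in WT rTreg, 57.5 in KO-labelled rTreg, 14.8 in WT aTreg and 135 in KO-labelled aTreg. In these 6 genes each KO-labelled library was above both WT libraries.

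Serine protease inhibitors and other genes made up the rest of the 15 highest. Serpina3f (chromosome 12, 104214544 to 104221129, plus strand) was at 1.001 CPM in WT rTreg, 15.7 in KO-labelled rTreg, 5.15 in WT aTreg and 33.7 in KO-labelled aTreg, and its neighbour Serpina3g, an inhibitor of cathepsins, had a ratio of 3.04 [2.77 to 3.37] (5.098 to 42.6 CPM). Their sequences are close, so reads may be exchanged between them, as they may between GBP, Irgm, Tgtp, Ifitm, Lilrb4 and H2 genes. Ifitm2, a membrane protein that restricts viral entry, had a ratio of 3.15 [2.68 to 3.85]. Hip1, an endocytic adaptor, went from 6.15 to 47.9 CPM (2.94). Smpdl3b, a phosphodiesterase of the plasma membrane, had a ratio of 3.1, Slc15a3, a lysosomal peptide transporter, 2.65, Lilrb4a, an inhibitory receptor, 2.65 and Soat2, a cholesterol esterifying enzyme, 2.59. The Lilrb4a counts were few in rTreg, 14 and 83, which left a wide interval, 2.65 [1.99 to 3.75].

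The lowest ratios belonged to genes of ion channels, adhesion and enzymes with no shared pathway among the lists. Chdh (chromosome 14, 30009023 to 30040527, plus strand), an enzyme of choline oxidation, was at 8.24 CPM in WT rTreg, 1.703 in KO-labelled rTreg, 17.7 in WT aTreg and 4.16 in KO-labelled aTreg, with a ratio of −2.21 [−2.89 to −1.71]. Tmem121b was at 29.4 CPM in WT rTreg, 7.32 in KO-labelled rTreg, 14.96 in WT aTreg and 4.69 in KO-labelled aTreg. Kcnf1 (chromosome 12, 17172100 to 17176888, minus strand), a potassium channel subunit, was at 44.9 CPM in WT rTreg, 11.9 in KO-labelled rTreg, 50.2 in WT aTreg and 14.7 in KO-labelled aTreg, and Ryr2, a calcium release channel, was at 24.4 CPM in WT rTreg, 7.49 in KO-labelled rTreg, 74.3 in WT aTreg and 16.5 in KO-labelled aTreg. For these 4 genes each KO-labelled library was below both WT libraries. Itgb8 (chromosome 12, 119158022 to 119238802, minus strand), the integrin chain that activates latent TGF-beta, went from 32.1 to 10.4 CPM, and H2-Ob, a chain of the class II modulator H2-O, from 53.4 to 17.4 CPM (−1.61 [−1.81 to −1.44]). St8sia6, a sialyltransferase, went from 128 to 44.96 CPM (−1.5 [−1.62 to −1.39]). Mapk12, a p38 kinase, had a ratio of −1.67, Rgs9, a regulator of G-protein signalling, −1.66, Slc14a1, a urea transporter, −1.66, Ptpn5, a tyrosine phosphatase, −1.61, Dtx4, a ubiquitin ligase of the Deltex family, −1.61, Ttc28 −1.53 and Col20a1, a collagen gene, −1.5. Camk2n1, an inhibitor of a calmodulin-dependent kinase, had a ratio of −1.92 [−2.51 to −1.45] in rTreg and −0.61 [−0.96 to −0.28] in aTreg.

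**Figure D2:**
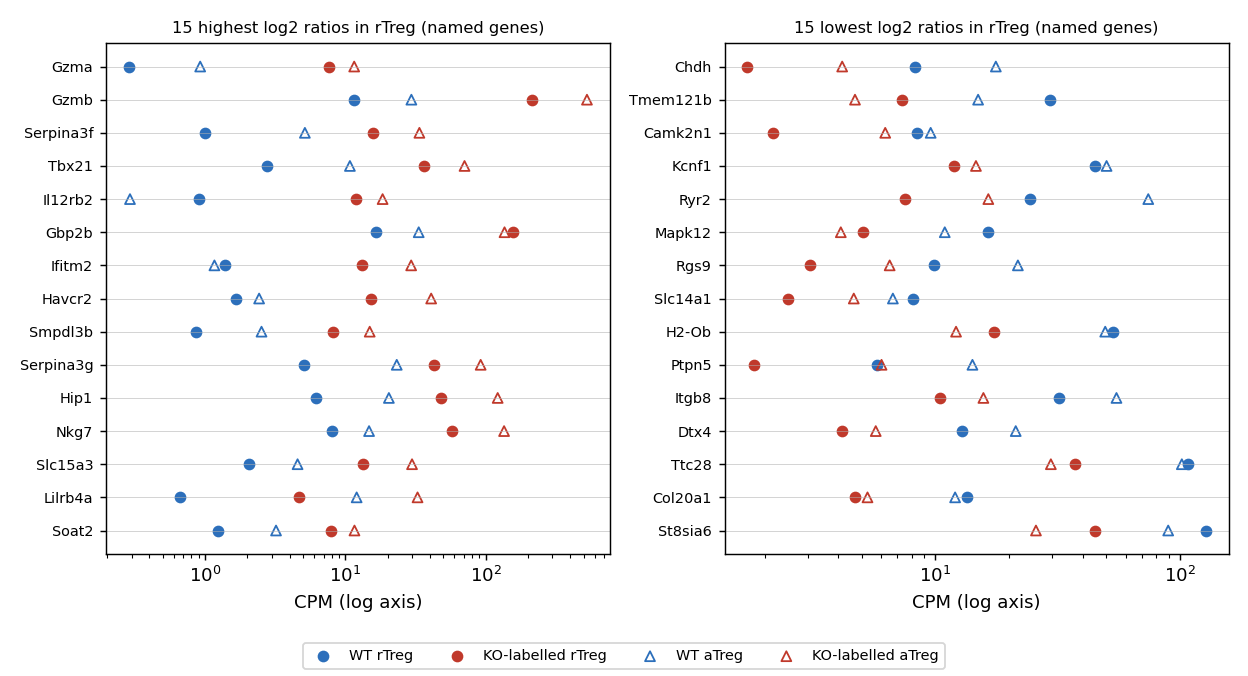
CPM on a log axis in the 4 libraries for the 15 genes with the highest (left) and the 15 with the lowest (right) log2 ratio in rTreg, 1 marker per library. In both states the KO-labelled marker lies to the right of the WT marker in the left panel, with Gzmb reaching 215 CPM in rTreg, and to its left in the right panel. For rTreg this follows from choosing the genes by their rTreg ratio, so only the aTreg markers could have lain otherwise.

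Cytotoxic and type 1 genes beyond these few were mostly higher too. Of 21 autosomal cytotoxic granule genes, 15 passed the level minimum, 6 were at least 2-fold higher and 0 lower, with a median ratio of 0.97 in rTreg and 0.70 in aTreg. The rTreg median was 0.55 with a minimum of 20 CPM, 0.71 with 1 CPM and 0.35 on the variance-stabilised scale. Over all autosomal genes 3.4% were at least 2-fold higher and the median was 0.01. Prf1, the pore-forming perforin, went from 3.097 to 6.64 CPM (1.08 [0.65 to 1.56]), and its aTreg ratio was 2.56 [2.14 to 3.14]. Serpinb9, an inhibitor of granzyme B, went from 13.3 to 36.4 CPM (1.45 [1.25 to 1.66]), and Srgn, the proteoglycan core of granules, from 337 to 553 CPM (0.71). The granule cathepsin Ctsw was lower (−0.70). Below the level minimum, granzyme K (Gzmk) had 0 counts in WT rTreg and 36 in KO-labelled rTreg, with 2 and 112 in aTreg. Fasl, the death ligand of cytotoxic cells, was lower instead, 132 against 48 counts (−1.18 [−1.71 to −0.72]), and Gzmm had 46 and 24.

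Of 18 measured type 1 helper genes, 8 were at least 2-fold higher and 0 lower, with a median of 0.90 in rTreg and 0.90 in aTreg. Intervals lay above 0 in 12 and below in 3. The rTreg median was 1.25 with a minimum of 1 CPM and 0.72 on the variance-stabilised scale. Ifng, the interferon-gamma gene itself, was at 3.29 CPM in WT rTreg, 12.9 in KO-labelled rTreg, 6.85 in WT aTreg and 28.9 in KO-labelled aTreg, a ratio of 1.94 [1.58 to 2.39]. Ccl5, a chemokine of activated T cells, went from 4.43 to 23.5 CPM (2.38 [2.08 to 2.75]). The chains of the interleukin-18 receptor, Il18rap (15.4 to 50.2 CPM, 1.7) and Il18r1 (101 to 183 CPM, 0.86), were both higher. Runx3, a partner of T-bet, was at the threshold (1.0 [0.90 to 1.11]), and Ly6c2, a surface marker, above it (1.49). The signal transducer Stat4, which acts downstream of the interleukin-12 receptor, was level (0.01 [−0.13 to 0.14]). Receptor chains for interferon-gamma differed in sign, Ifngr1 at 0.70 and Ifngr2 at −0.46. Eomes, a relative of T-bet, was under the level minimum with 33 and 123 counts (2.08 [1.59 to 2.75]), and Il12rb1 had 20 and 58. The chemokines Ccl3 (0 and 15 counts) and Ccl4 (2 and 16) were near the detection limit in WT rTreg. Another chemokine of the list under the level minimum, Xcl1, went the other way with 11 and 3 counts (−1.2 [−4.1 to 0.30]). NK cell markers summed to 2.19 CPM in WT and 7.27 in KO-labelled rTreg over 2 genes, of which Klrb1c had 13 and 5 counts and Eomes the rest. The summed 2 CD8 markers were 10.5 and 12.9 CPM, with 9 and 14 counts of Cd8a. In bulk RNA, more cells of a type and more RNA per cell cannot be told apart. Of 13 genes of other helper lineages, none was 2-fold apart in either direction (median 0.24).

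All 17 measured GBP and IRG genes had counting intervals above 0, and 12 were at least 2-fold higher. Their median ratio was 1.34 in rTreg and 0.88 in aTreg, where 7 were at least 2-fold higher, and their summed level went from 1572 to 3910.2 CPM. Gbp2b, the member with the highest ratio, was at 16.4 CPM in WT rTreg, 156 in KO-labelled rTreg, 33.4 in WT aTreg and 136 in KO-labelled aTreg, a ratio of 3.24 [3.08 to 3.41]. Gbp3 went from 70.3 to 274 CPM (1.96 [1.88 to 2.05]), Gbp2 from 91.8 to 304 CPM (1.73 [1.65 to 1.8]), Gbp5 from 69.8 to 191 CPM (1.45) and Gbp7 from 164 to 434 CPM (1.41). Among those without a promoter entry, Gbp4 went from 281 to 667 CPM (1.25), while Gbp9 had the smallest ratio of the 17 (0.28 [0.22 to 0.34], with −0.05 in aTreg). Of the IRG genes, which load onto membranes of vacuoles, Iigp1 went from 63.9 to 295 CPM (2.21 [2.12 to 2.3]), Tgtp1 from 25.6 to 81.6 CPM (1.67) and Igtp from 231 to 647 CPM (1.48). The regulatory IRG genes followed, Irgm1 at 1.21 and Irgm2 at 0.90. The KO-labelled rTreg library was thus above WT throughout the measured family, with ratios from 0.28 to 3.24.

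Other genes of the interferon-gamma response showed the same direction. All 24 had intervals above 0, 9 were at least 2-fold higher, the median was 0.76 in rTreg and 0.56 in aTreg, and the summed level went from 5862 to 9139 CPM. Irf1, a transcription factor of this response, went from 425 to 725 CPM (0.77 [0.73 to 0.81]), and Irf8 from 20.4 to 55.6 CPM (1.44 [1.28 to 1.62]). Cd274, the ligand PD-L1, went from 57.4 to 138 CPM (1.26 [1.16 to 1.36]), and Ly6a, the surface protein Sca-1, from 75.3 to 264 CPM (1.81 [1.73 to 1.89]). GAS letters were in 8 of 18 promoters of this list (44.4%). Genes of the type I interferon response did not share this shift: 13 of 34 had intervals above 0 and 16 below, against 34.3% and 33.0% of all. None was at least 2-fold higher and 2 were lower (median 0.06). Those 2 were Oasl1 (21.3 to 8.8 CPM, −1.27 [−1.55 to −1.01]) and Rsad2, the antiviral protein viperin (25.6 to 11.4 CPM, −1.16 [−1.41 to −0.93]), and Oas2, a sensor of double-stranded RNA, was at −0.92.

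Genes of MHC class I presentation were higher by less than 2-fold, and class II genes differed in sign. Of 23 MHC class I presentation genes, 22 had intervals above 0 and 1 below, none was 2-fold apart, and the median was 0.42. Tap1, a peptide transporter, went from 449 to 738 CPM (0.72), Psmb9, a subunit of the immunoproteasome, from 151 to 270.1 CPM (0.84), Pdia3, a chaperone of class I loading, from 402 to 699 CPM (0.80) and B2m, the light chain, from 1839.8 to 3112 CPM (0.76). The heavy chain H2-K1 was the exception (4405 to 3947 CPM, −0.16 [−0.17 to −0.14]), and H2-D1 was at 0.05. Of 8 MHC class II genes, 2 were at least 2-fold higher and 1, H2-Ob, lower, with 4 intervals above 0 and 2 below. Their median was 0.13, and −0.02 with a minimum of 20 CPM. Cd74, the invariant chain, was at 20.3 CPM in WT rTreg, 92.8 in KO-labelled rTreg, 36.5 in WT aTreg and 98.2 in KO-labelled aTreg (2.19 [2.04 to 2.35]), and H2-DMa, which loads peptides, went from 15.96 to 53.6 CPM (1.74). The chains that present peptide were under the level minimum, with 10 and 87 counts of H2-Ab1 (3.12 [2.43 to 4.48]) and 5 and 41 of H2-Aa (2.83 [1.95 to 4.99]). Beside them stood Ciita, the class II activator, with 12 and 22 counts, 4 dendritic cell markers at 0.953 and 3.12 CPM and 10 B cell markers at 15.2 and 18.3 CPM. Of the dendritic cell markers 1 was at 0 counts in each rTreg library, and of the B cell markers none. Among the B cell markers Cd79b had 184 and 200 counts, Cd79a 78 and 62, Cd22 24 and 36 and Ms4a1 2 and 3. Antibody genes were higher, with 21 and 365 counts of Igkc, 56 and 173 of Ighd and a level of 343 and 732 CPM of Ighm. The part of other cells in the class II values was not tested.

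Genes of DNA replication and mitosis were higher in KO-labelled rTreg in nearly every member. All 56 measured replication genes had intervals above 0 and 24 were at least 2-fold higher, with a median of 0.92 (0.60 on the variance-stabilised scale) and an aTreg median of 1.1, and the summed level went from 2535 to 4683 CPM. The 6 subunits of the MCM helicase lay close together, from 0.98 for Mcm2 (103 to 204 CPM) to 1.28 for Mcm3 (91.4 to 222 CPM), with Mcm4 at 1.01, Mcm5 at 1.06, Mcm6 at 1.1 and Mcm7 at 1.08. Cdc6, which loads the helicase and carries the E2F letters shown, had a ratio of 1.8 [1.62 to 2.01] (13.8 to 48.5 CPM). Gins2, a helicase cofactor, was at 1.81 and Clspn, a checkpoint mediator, at 1.8. Rrm2, a subunit of ribonucleotide reductase, went from 55.6 to 169 CPM (1.6), and Pcna, the polymerase clamp, from 235 to 349 CPM (0.57). The smallest ratio in the list was that of Donson (0.15 [0.02 to 0.27]). The clamp and the helicase thus differed in size of ratio, from 0.57 to 1.28, and not in direction.

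Of 79 measured mitosis genes, 50 were at least 2-fold higher and none lower, and 77 had intervals above 0. The median was 1.08 in rTreg (0.61 on the variance-stabilised scale) and 1.75 in aTreg, and the summed level went from 2927 to 5068 CPM. Mki67, the gene of the proliferation marker Ki-67, was at 238 CPM in WT rTreg, 706 in KO-labelled rTreg, 137 in WT aTreg and 648 in KO-labelled aTreg, a ratio of 1.57 [1.52 to 1.62]. Cenpn, a centromere protein, had a ratio of 1.83 [1.5 to 2.23] (4.003 to 14.5 CPM), Birc5, the chromosomal passenger survivin, 1.77 (22.2 to 75.7 CPM), Ccnb2, a mitotic cyclin, 1.66 (27.4 to 86.97 CPM) and Top2a, which untangles chromosomes, 1.25 (144 to 343 CPM). Cdk1, the mitotic kinase, went from 13.96 to 28.5 CPM (1.02 [0.82 to 1.24]). Smc4, a condensin subunit, was the member with an interval below 0 (−0.20 [−0.23 to −0.16]). Mki67, Birc5, Ccnb2, Top2a and Cdk1 were lower in WT aTreg than in WT rTreg, and their aTreg ratios were larger, from 1.9 for Top2a to 2.57 for Birc5.

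Repair genes were mostly higher, and genes that restrain the cell cycle went both ways. Of 30 genes of homologous recombination and crosslink repair, 13 were at least 2-fold higher (median 0.89, with 0.51 at a minimum of 20 CPM and 0.42 on the variance-stabilised scale), among them Brca1 (14.01 to 37.2 CPM, 1.4) and Exo1 (1.51), while Fancc, of the Fanconi complex, was lower (−0.56). Of 33 E2F, Myc and Rb family genes, 6 were at least 2-fold higher. E2f1, an activator of S-phase genes, went from 14.1 to 38.8 CPM (1.45 [1.26 to 1.66]), and the repressors of the same targets, E2f7 (1.77) and E2f8 (12.7 to 48.5 CPM, 1.93), were higher as well. Mybl2 (1.33) and Foxm1 (1.05) drive mitosis genes. Myc itself was at −0.14 [−0.22 to −0.07], and Mxd4, a repressor in the Myc network, at −0.86. CDK inhibitors and p53 targets went both ways, 4 of 25 at least 2-fold higher and 3 lower: Cdkn1a, the inhibitor p21, went from 10.96 to 28.1 CPM (1.35) and Cdkn2c, the inhibitor p18, was at 1.15, but the growth-arrest genes Btg2 (241 to 113 CPM, −1.09) and Gadd45a (−1.19) and the stress gene Sesn1 (181 to 87.2 CPM, −1.05) were lower. Of 31 DNA methylation and Polycomb genes, 3 were at least 2-fold higher, Uhrf1, which guides methylation to new DNA (64.6 to 182 CPM, 1.49), Phf19 (1.45) and Pcgf2 (1.06). Of 54 autosomal replication-dependent histone genes 1 was measured at the level minimum, so that list says little here.

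**Figure D3:**
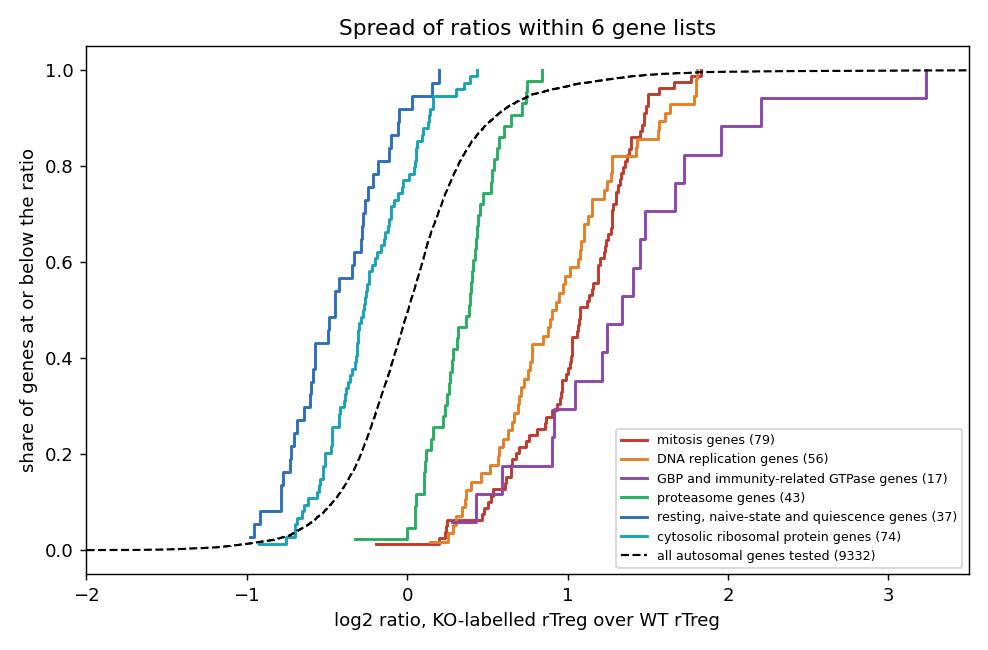
Share of genes (y axis) at or below each log2 ratio of KO-labelled over WT rTreg (x axis) for 6 lists and for all 9332 autosomal genes tested. The curves of mitosis, replication and GBP and IRG genes lie to the right of the curve of all genes, while those of resting and quiescence and cytosolic ribosomal genes lie to its left.

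The complexes in which RIPK1 acts showed small differences. Of 32 measured RIPK1, RIPK3 and FADD complex genes none was 2-fold apart, and the median was 0.06 in rTreg and −0.01 in aTreg. Intervals lay above 0 in 13 and below in 10, near the 34.3% and 33.0% of all autosomal genes tested. Ripk3, the kinase of necroptosis, was at 67.9 CPM in WT rTreg, 82.3 in KO-labelled rTreg, 67.9 in WT aTreg and 96.04 in KO-labelled aTreg (0.28 [0.17 to 0.38]). Its substrate Mlkl was under the level minimum with 35 and 71 counts in rTreg and 38 and 94 in aTreg, a rTreg ratio of 1.22 [0.67 to 1.9]. Fadd, the adaptor of caspase-8, went from 8.58 to 15.6 CPM (0.86 [0.59 to 1.14]), and Zbp1, an interferon-induced sensor that can bind RIPK3, from 206 to 372 CPM (0.85). Casp8 itself was nearly level (239 to 253 CPM, 0.08 [0.03 to 0.14]), and Cflar, its inhibitory partner c-FLIP, was slightly lower (224 to 195 CPM, −0.20 [−0.26 to −0.13]). Of the kinases and adaptors that pass the signal to NF-kappaB, Tab2 was higher (0.46) and Ikbkb lower (−0.40). Tnfaip3, the ubiquitin editor A20 that limits these complexes, went from 2340.4 to 1546 CPM (−0.60 [−0.62 to −0.58]). Of 22 NF-kappaB pathway genes 2 (Ebi3 and Icam1) were at least 2-fold higher and the median was 0.10.

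Among other death genes, caspases of inflammation were higher and BH3-only genes differed in sign. Casp1, the protease of pyroptosis, went from 8.53 to 31.5 CPM (1.87 [1.64 to 2.13]), and Casp4 from 9.05 to 25.5 CPM (1.48 [1.25 to 1.75]). Naip5, a sensor of bacterial flagellin, was lower (−0.96). In the BCL2 family 2 of 17 were at least 2-fold lower and none higher, both of them activators of mitochondrial apoptosis, Bcl2l11 (BIM; 175 to 81.4 CPM, −1.1 [−1.19 to −1.01]) and Bmf (−1.1). Bbc3 (PUMA) was just short of the threshold (39.6 to 20.1 CPM, −0.97 [−1.16 to −0.80]), and the guardian Bcl2 went from 331 to 218 CPM (−0.60). On the other side stood the effector Bak1 (58.4 to 117 CPM, 1.0 [0.89 to 1.1]) and the BH3-only genes Pmaip1 (0.82) and Bid (0.64). Mcl1, a guardian on which Treg cells depend, was at −0.08 [−0.11 to −0.04].

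The core of the Treg program was close to level, and effector genes were higher. Of 30 Treg identity genes 1 was at least 2-fold higher and 2 (Itgb8 and Nt5e) lower (median 0.05). Il2ra, the high-affinity interleukin-2 receptor chain CD25, went from 557 to 780.2 CPM (0.49), Ctla4, the inhibitory receptor, from 288 to 334 CPM (0.22) and Ikzf2, the factor Helios, from 493 to 542 CPM (0.14 [0.10 to 0.18], with −0.21 [−0.24 to −0.17] in aTreg). Socs2, a feedback inhibitor of cytokine signals, was higher (52.99 to 120.0 CPM, 1.18). Of the ectoenzymes that turn ATP into adenosine, Nt5e (CD73) was lower (261 to 129 CPM, −1.02 [−1.09 to −0.95]) and Entpd1 (CD39) higher (0.71). Nrp1, a marker of thymus-derived Treg cells, was lower (191 to 129 CPM, −0.57).

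Of 43 activated and effector Treg genes 21 were at least 2-fold higher and none lower, with a median of 0.89 in rTreg (0.59 on the variance-stabilised scale) and 0.70 in aTreg. Prdm1, the factor BLIMP-1, was at 14.9 CPM in WT rTreg, 44 in KO-labelled rTreg, 38.7 in WT aTreg and 68.4 in KO-labelled aTreg (1.55 [1.37 to 1.75]). The surface receptors Tigit (32.4 to 96.5 CPM, 1.57 [1.45 to 1.71]), Klrg1 (24.5 to 56.9 CPM, 1.21) and Icos (55.3 to 126 CPM, 1.19) were higher, as were Cd80, a ligand of CTLA-4 (4.34 to 19.9 CPM, 2.17), and Il1r2, a decoy for interleukin-1 (3.29 to 10.05 CPM, 1.58). Ebi3, a subunit of interleukin-35, went from 6.53 to 16.9 CPM (1.36), and Itgae, the integrin CD103, from 78.1 to 145 CPM (0.89). Cd44, whose protein is often used to separate resting from activated T cells, was lower (−0.25 [−0.35 to −0.14]).

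Resting and quiescence genes were lower in nearly every member, by less than 2-fold. Of 37 measured, 32 had intervals below 0 and 2 above, none was 2-fold apart, and the median was −0.45 in rTreg and −0.44 in aTreg. Tcf7, the factor TCF-1, went from 810.5 to 577 CPM (−0.49 [−0.53 to −0.45]), Bach2, a repressor of effector genes, from 180.2 to 110.5 CPM (−0.71 [−0.79 to −0.63]), Klf2, which keeps T cells recirculating, from 484 to 361 CPM (−0.42) and Il6ra, a chain of the interleukin-6 receptor, from 391 to 227 CPM (−0.79). Rapgef4 (−0.98), Dapl1 (−0.96) and Cd55 (−0.92) had the lowest ratios of the list, and Ccr7, the lymph node homing receptor, had −0.26. Of 26 TGF-beta pathway genes 16 had intervals below 0 and 1, Itgb8, was at least 2-fold lower (median −0.29). The receptor chain Tgfbr2 (337 to 215 CPM, −0.65) and the feedback inhibitors Smad7 (267 to 142 CPM, −0.90) and Skil (−0.62) were lower together, while the ligand Tgfb1 was at 0.10 [0.04 to 0.16].

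Receptors and secreted factors varied gene by gene. Of 18 inhibitory receptor genes 4 were at least 2-fold higher and none lower, with a median of −0.04. Havcr2, Lilrb4a, Tigit and Klrg1 were the higher ones, and Pdcd1 (PD-1, −0.21), Cd96 (−0.51) and Cd101 (−0.63) were lower. Of 24 costimulatory and TNF receptor genes 2 (Icos and Cd80) were at least 2-fold higher and the median was 0.08. Of 20 cytokine and chemokine genes 4 were at least 2-fold higher, with a median of 0.37 in rTreg and −0.16 in aTreg. Lif, a cytokine of the interleukin-6 family, was at 16.9 CPM in WT rTreg, 75.6 in KO-labelled rTreg, 44.05 in WT aTreg and 97.9 in KO-labelled aTreg (2.16 [1.99 to 2.34]). Tnf, the ligand whose receptors signal through RIPK1, went from 14.8 to 22.4 CPM in rTreg (0.60 [0.38 to 0.82]) and had a ratio of −0.18 [−0.33 to −0.04] in aTreg. Il10, the anti-inflammatory cytokine, was at 4.05 CPM in WT rTreg, 7.44 in KO-labelled rTreg, 47.9 in WT aTreg and 25.5 in KO-labelled aTreg, so that the KO-labelled library was higher in rTreg (0.86 [0.47 to 1.29]) and lower in aTreg (−0.90 [−1.07 to −0.75]). Chemokine receptors had a median of 0.02, with 2 of 20 at least 2-fold higher, among them Ccr2, the receptor of monocyte-attracting chemokines (49.98 to 111 CPM, 1.14).

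Genes induced early by the T cell receptor were lower. Of 36 early-response genes 24 had intervals below 0 and 7 above, against 33.0% and 34.3% of all autosomal genes. At least 2-fold lower were 3 (Npas4, Btg2 and Dusp1) and higher 1 (Bhlhe40), and the median was −0.39 in rTreg and −0.67 in aTreg. Dusp1, a phosphatase of MAP kinases, went from 651 to 325 CPM (−1.0 [−1.05 to −0.96]), Fos from 335 to 234 CPM (−0.52), Junb from 2256 to 1569 CPM (−0.52), and Nr4a2, a nuclear receptor, had −0.90. Npas4, an activity-dependent factor, had a wider interval (−1.22 [−1.73 to −0.78]). Nr4a1, often used as a reporter of receptor signals, was nearly level in rTreg (0.06 [0.03 to 0.09]) and lower in aTreg (−0.52 [−0.55 to −0.50]). Egr1 was level in rTreg and lower in aTreg, at 164 CPM in WT rTreg, 161 in KO-labelled rTreg, 916 in WT aTreg and 247 in KO-labelled aTreg. Bhlhe40, a factor induced by stimulation, went from 100.4 to 226 CPM (1.17). Early-response and chaperone genes also respond to handling of cells, and 16 of 26 chaperone genes had intervals below 0 (median −0.19), with Hsph1 (246 to 106 CPM, −1.21) and Dnajb4 (−1.26) at least 2-fold lower. The part of handling was not tested. Of 38 T cell receptor signalling genes 23 had intervals below 0 and none was 2-fold apart (median −0.08), with the phospholipase Plcg1 at −0.40.

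Most metabolic lists had medians a little above that of all genes. Serine, one-carbon and amino acid supply genes had 0.06, with 10 of 26 intervals above 0, against 34.3% of all autosomal genes. In glycolysis 17 of 23 genes had intervals above 0 (median 0.36), with Tpi1 (51.8 to 138 CPM, 1.41), Pgam1 (1.01) and Eno1 (602 to 1059.9 CPM, 0.82) higher and the enolase Eno3 lower (56.7 to 26.5 CPM, −1.09). Nuclear-encoded respiratory chain genes had a median of 0.25 with 49 of 71 intervals above 0, the TCA cycle 0.19, mitochondrial ribosomal proteins 0.17, fatty acid genes 0.23 and cholesterol synthesis 0.26. No gene of the respiratory chain was 2-fold apart, and Ndufv2 (0.69) and Cox6a1 (0.68) were the furthest. In cholesterol synthesis 1 gene, Idi1, passed 2-fold (1.29). Among genes that restrain growth signals, Ddit4, an inhibitor of mTORC1 (202 to 102 CPM, −0.98), and Pik3ip1, an inhibitor of PI3K (−0.79), were lower, while Akt1 was higher (163 to 255 CPM, 0.64).

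Ribosomal protein genes and proteasome genes went in opposite directions. Cytosolic ribosomal protein genes were lower in 53 of 74 by their intervals and higher in 16, with a median of −0.27, and their sum went from 73406 to 64694 CPM. Rps16 (1261 to 664 CPM, −0.93), Rps28 (−0.75) and Rplp1 (1501 to 964 CPM, −0.64) were lower and Rpsa (2584 to 3301 CPM, 0.35) and Rps26 (0.43) higher. Many processed copies of ribosomal protein genes exist, so reads may be shared between them. Proteasome genes had intervals above 0 in 35 of 43 and below in 1 (median 0.39). The member below was Psmb5 (−0.32 [−0.45 to −0.20]), the subunit that PSMB8 replaces in the immunoproteasome. Lists can share members: the highest proteasome ratio, 0.84, is that of Psmb9, given above under MHC class I presentation. Genes of folding in the endoplasmic reticulum had a median of 0.31, with the stress sensor Ern1 (1.09) at least 2-fold higher.

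Many genes of cell shape and movement were higher. Of 16 galectin, S100 and annexin genes 6 were at least 2-fold higher and none lower, with a median of 0.51 in rTreg (0.81 with a minimum of 20 CPM) and 0.95 in aTreg. Lgals3 (galectin-3) went from 15.2 to 86.01 CPM (2.49 [2.32 to 2.67]), Lgals1 (galectin-1) from 218 to 570.4 CPM (1.38), Anxa2 (annexin A2) from 93.9 to 321 CPM (1.77) and S100a6 from 85.96 to 229 CPM (1.41). S100a10, which pairs with annexin A2, went from 308 to 635 CPM (1.04). Vim (vimentin), of the intermediate filaments, went from 865 to 2129 CPM (1.3 [1.27 to 1.33]), the motor Myo1f from 82.1 to 204 CPM (1.31) and Actb, the actin gene often used as a constant reference, from 2669 to 3707 CPM (0.47 [0.46 to 0.49]). Of 35 cytoskeleton genes 26 had intervals above 0 and 5 below (median 0.38). Integrin and adhesion genes went both ways, with 12 of 28 intervals above 0 and 10 below (median −0.05).

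Genes at least 2-fold lower were spread thinly over the lists, with at most 5 in any one, the 148 solute carrier genes. Of 25 adenosine and cyclic AMP genes 3 were at least 2-fold lower and none higher, against 1.34% lower and 3.4% higher over all autosomal genes, namely Nt5e, Gucy1a1, a subunit of guanylate cyclase (−1.3), and Pde4a, which breaks down cyclic AMP (−1.17 [−1.7 to −0.72], with 0.32 [−0.05 to 0.70] in aTreg). Of 10 regulators of G-protein signalling 2 were lower, Rgs9 and Rgs16 (75.6 to 34.6 CPM, −1.13). Of 31 ion channel genes 17 had intervals below 0, against 33.0% of all. Kcnf1, Ryr2 and Trpm1 (−1.36, with −0.12 in aTreg) were at least 2-fold lower, but Cacna1i, a calcium channel, was higher (10.5 to 31.9 CPM, 1.59). Nr1d1, a repressor of the circadian clock, was lower (−1.27). By size of the CPM difference, which also grows with transcript length, the lower genes were led by Malat1, a nuclear noncoding RNA (chromosome 19, 5795690 to 5802672, minus strand), at 2604 CPM in WT rTreg, 1093 in KO-labelled rTreg, 2680.2 in WT aTreg and 860.4 in KO-labelled aTreg (−1.25 [−1.28 to −1.23]). Macf1 (2475 to 1298 CPM, −0.93), which links actin and microtubules, and Zfp36l2 (2207 to 1152 CPM, −0.94), which destabilises mRNA, followed. Btg1 (1299.7 to 753 CPM, −0.79), a restraint on growth, came further down, after Ddx5 (3646 to 2611 CPM, −0.48) and Arhgap45 (2814 to 1987 CPM, −0.50) among others.

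**Figure D4:**
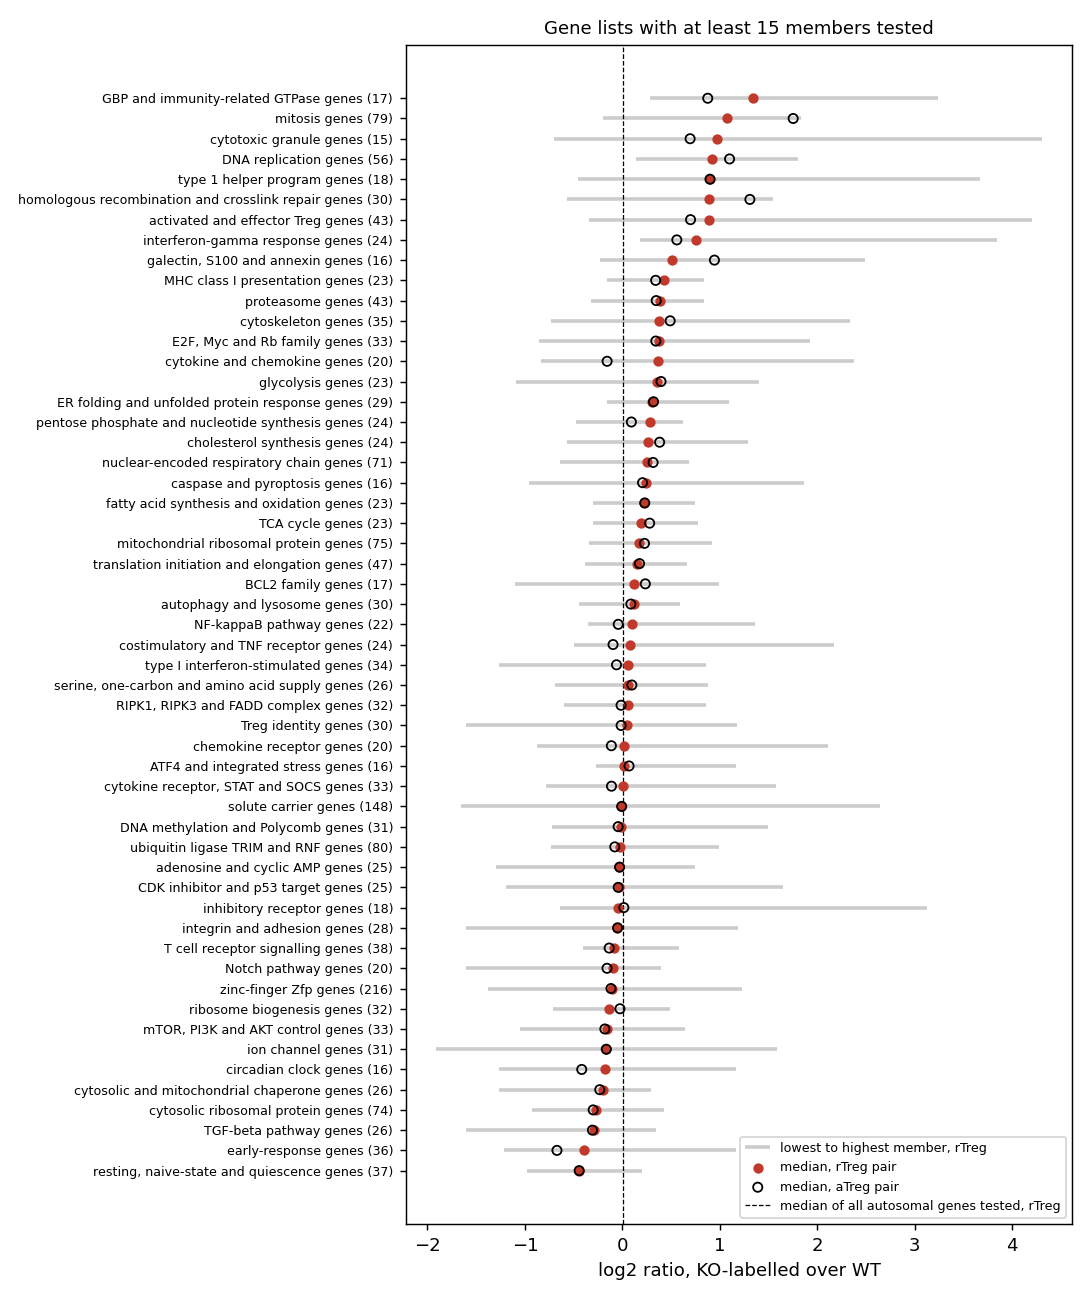
Median log2 ratio of KO-labelled over WT (x axis) in rTreg and in aTreg for gene lists with at least 15 members tested (y axis), with grey lines from the lowest to the highest member in rTreg. Of the lists plotted, GBP and IRG and mitosis genes have the highest rTreg medians, at 1.34 and 1.08, and resting genes the lowest, at −0.45.

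The same genes were at least 2-fold apart in aTreg for most of these. Of the 317 genes higher in rTreg 250 were at least 2-fold higher in aTreg, 78.9% of the rTreg and 68.1% of the aTreg list, against 3.93% of all autosomal genes called higher in aTreg. Of the 125 lower, 83 were lower in aTreg, 66.4% and 40.9% of the lists, against 2.18% of all. Opposite signs were measured for 3 of the 317 and 2 of the 125. Apart from Il10 and Egr1, the widest gaps with a higher rTreg ratio included Cxcl10, a chemokine induced by interferon-gamma (1.31 in rTreg and −0.23 in aTreg, at 7.15 CPM in WT rTreg, 17.8 in KO-labelled rTreg, 24.2 in WT aTreg and 20.6 in KO-labelled aTreg), Plac8 (1.67 and 0.33) and Gas2l1 (1.23 and −0.06). On the other side were Ifitm1 (2.5 and 4.72), Prf1, Ska1 of the kinetochore (1.39 and 2.74), Depdc1b (0.47 and 2.11) and Ggt1 (0.17 and 1.96). No residual degree of freedom is left for a test of these gaps.

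Genes under the level minimum included a few that were nearly absent in 1 rTreg library. Gas7 (chromosome 11, 67455437 to 67688990, plus strand), a gene linked to cell shape, had 1 count in WT and 54 in KO-labelled rTreg, and 10 and 187 in aTreg. Ifi211, of the interferon-inducible p200 family, had 3 and 48 counts (3.53 [2.62 to 6.58]), and Cables1 1 and 41. Nccrp1 (2 and 37) and the mucin gene Muc13 (2 and 36) had the same pattern. In the other direction Lbp, a lipopolysaccharide-binding protein, had 42 and 3 counts (−2.95 [−5.89 to −1.91]), and the chemokine Cxcl2 30 and 3. Next to the 2-fold threshold lay Osbpl3, Runx3 and Cdc20, each at 1.0 and inside it, and Chtf18, Bak1 and Carhsp1 just outside. On the lower side Thra, Tbc1d4 and Dusp1 were just inside and Atp6v0a1, Fgd6 and Phf1 (−0.99) just outside.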

How the data were processed

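Messenger RNA of Treg cells was measured in 4 libraries, 1 per genotype and state. TRIzol was used for RNA and a SMARTer kit for the libraries, according to the labels' protocols. HISAT2 2.2.1 and featureCounts 2.0.1 and the build GRCm38 are named in the submitters' processing notes. The sources used here do not give the annotation or the use of strand in counting, so overlapping genes on opposite strands may share reads. The deposited table holds raw counts per gene symbol. The authors also deposited variance-stabilised values, by the file headers on a scale close to log2, which were used as an alternative only.

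Counts were scaled to CPM with TMM (edgeR 4.0.16, R 4.3.3), log2 CPM used a prior count of 2, and genes were kept from a 4-library mean of 5 CPM upward. Counting intervals are exact binomial (Clopper-Pearson, 95%) given the sum of 2 counts, without the prior count, and lists are described by counts and medians with no test. Positions are from GENCODE M21 (18443 symbols matched) and RefSeq (508), and 93 symbols were unmatched. The calculation was tested on simulated data. The rule for naming genes took the 15 highest and 15 lowest ratios, the 12 largest CPM differences per direction, the 5 members per list with the largest absolute ratio and further members by role. It also took the 3 genes on either side of the threshold, the 8 per direction differing most from aTreg, the 5 per direction under the level minimum and a few single genes, leaving out predicted genes and receptor segments. Results for a few genes and 1 list are not reported here. The members, the 64 gene lists and the rule were chosen with earlier results of these data known. Alternatives were no TMM, upper-quartile and DESeq2 1.42.0 size factors, other prior counts, level minimums and folds, and the variance-stabilised values.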

Additional observations from a re-analysis of the deposited data

Results flagged for a closer look

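Further members named by role were left out here. In 3 of the other named genes at least 1.5-fold apart in rTreg, the counting intervals of rTreg and aTreg lay on opposite sides of 0. This difference was not tested because each group has 1 library. Tnf, named by role, also had opposite intervals, as did Ikzf2 and Ccr8 at rTreg ratios under 1.5-fold. Il10, the anti-inflammatory cytokine, had a ratio of 0.86 in rTreg and −0.90 in aTreg. Cxcl10, a chemokine induced by interferon-gamma, had 1.31 in rTreg and −0.23 in aTreg. Penk, the precursor of enkephalin peptides that Treg cells can express, had 0.77 in rTreg and −0.35 in aTreg. Over the 8929 genes with a proper name, 134 had intervals on opposite sides, whatever the size of the ratio.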

How the results depend on the processing

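Of the autosomal genes, 317 were at least 2-fold higher and 125 lower. With a minimum of 1 CPM these were 527 and 322, and with 20 CPM 171 and 55. A threshold of 1.5-fold gave 813 and 555, and asking the counting interval to lie past 2-fold gave 204 and 47. The authors' variance-stabilised values, which compress low genes, gave 72 and 9, so 88.9% of calls were higher against 71.7%, and 93 of the 140 named genes at least 2-fold apart were under 2-fold, as were 3 of the 4 list medians of at least 2-fold (IFITM 0.49, mitosis 0.61, serpins 0.74). Counts stayed within 1.5 times without TMM (313 and 127), with upper-quartile scaling (277 and 147) and with DESeq2 size factors (314 and 127). They also did with prior counts of 0.5 (320 and 127) or 8 (301 and 118) and without predicted genes (303 and 118). The same held with all 9680 genes that reached the level minimum, on any chromosome or none (330 and 130). The median ratio of all genes ran from −0.04 with upper-quartile scaling to 0.01 with a minimum of 20 CPM. The median of the circadian clock list, −0.18, turned to 0.0419 at 20 CPM, where fewer genes are tested, as did those of MHC class II (0.13 to −0.02), CDK inhibitor and p53 (−0.04 to 0.04, and 0.14 at 1 CPM) and integrin genes (−0.05 to 0.02). List medians of ATF4, chemokine receptor, cytokine receptor, Treg identity and IRF genes, all near 0, changed sign with upper-quartile scaling, and that of cytokine receptor genes also without TMM. The rTreg contrast holds no pairs; a fit over both states would estimate a genotype effect shared by them and was not run here. Depth limits genes near 5 CPM, where the interval is wide, and counts of few reads.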

Other observations

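Genes of antibody chains and red cells, left out of the named genes or under the level minimum and chosen here after their values were seen, differed between the rTreg libraries. Igkc, the constant part of the kappa light chain, had 21 counts in WT and 365 in KO-labelled rTreg, and Ighd, the constant part of IgD, 56 and 173. Ighm, the constant part of IgM, was at 343 and 732 CPM, a log2 ratio of 1.09 [1.05 to 1.13] in rTreg and 0.25 in aTreg. Beside them 10 B cell markers summed to 15.2 and 18.3 CPM, with 184 and 200 counts of Cd79b, 78 and 62 of Cd79a and 2 and 3 of Ms4a1, and 5 plasma cell markers summed to 2.48 and 4.71 CPM. The hemoglobin gene Hba-a1 had 5 and 131 counts, and S100a9, a neutrophil gene, 0 and 25. The part of such cells or of free RNA in other genes was not tested.

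3 predicted genes, also chosen after their values were seen, were among the highest in rTreg. Gm4951 had 16 and 307 counts (4.34 [3.79 to 5.34]), Gm4841 32 and 316 (3.47 [3.03 to 4.13]) and F830016B08Rik 27 and 227 (3.23 [2.75 to 3.96]). Their aTreg ratios were 2.87, 1.99 and 2.02. All 3 lie on chromosome 18 near the IRG gene Iigp1, whose ratios were 2.21 in rTreg and 1.77 in aTreg.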
